A study of Mus musculus with 6 samples.

Results

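Macrophages of adipose tissue were followed through 41 of their genes. The list rests on what is known of these cells, but was chosen with earlier results of these data known. It was set against all 19937 genes that the array resolved in adipose tissue of cavin-3 KO and WT mice. Each gene was read from a single probe set, the one with the highest mean log2 intensity over the 6 arrays among those annotated with 1 gene symbol. Of the 41 genes, 40 were measured, and Spp1 (osteopontin) was not analysed here. The KO mice descend from 1 targeted C57BL/6N embryonic stem cell clone in which a lacZ/neo fusion cassette takes the place of the full-length cavin-3 gene, so every cell type lacks it, macrophages as well as adipocytes. The WT mice were their litter mates. All were 10 weeks old, were kept on chow and had been fasted for 6 hours, and 3 mice of each genotype gave 1 array each. The sample labels call the tissue adipose and do not name the depot. In RNA of whole tissue, fewer macrophages and less RNA per macrophage cannot be told apart.

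Macrophages are the main immune cells of lean fat. They depend on the CSF1 receptor for survival and on the transcription factor PU.1 (gene Spi1) for their identity. Resident cells lie along vessels, carry the mannose receptor and scavenger receptors and take up debris and iron. When adipocytes are stressed or die, macrophages that surround them take on a lipid-handling state marked by the lipid receptor TREM2, and monocytes that enter through CCR2 can release TNF and interleukin-1 beta. The 41 genes were therefore read in groups: lineage and myeloid identity, resident, lipid-associated and inflammatory genes, and the C1q, Fc receptor, scavenger and lysosomal genes that most macrophages share.

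The promoters of these genes were searched for GAGGAA, the core letters that PU.1 binds, on both strands, in RefSeq windows (GRCm38.p6) of 250 bases before to 50 bases after each start site. The longer form GAGGAAGT, which contains GAGGAA, was counted as well. A window was at hand for 33 of the 41 genes. GAGGAA or its reverse complement was in 18 of these 33 (54.5%), against 31.3% of 27025 genes with a window, and the longer form in 4 of 33, against 3.69% of all. A match of 6 letters describes the sequence and is no proof of binding. In 8 genes a match lay within the last 60 bases before the start. Of these, 6 are shown because they span the lineage, resident, lipid-associated, C1q and Fc receptor genes described below. Each line holds the 80 bases before the start, read 5′ to 3′ on the strand of the gene, with the match in capitals (TTCCTC is GAGGAA on the other strand).
Trem2, chr17:48346321-48346400, plus strand: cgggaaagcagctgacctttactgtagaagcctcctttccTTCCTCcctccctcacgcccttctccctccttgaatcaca
Mrc1, chr2:14229334-14229413, plus strand: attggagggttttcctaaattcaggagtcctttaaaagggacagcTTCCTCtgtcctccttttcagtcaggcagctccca
C1qb, chr4:136886201-136886280, minus strand: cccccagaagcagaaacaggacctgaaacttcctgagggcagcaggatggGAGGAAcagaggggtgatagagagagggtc
Laptm5, chr4:130913236-130913315, plus strand: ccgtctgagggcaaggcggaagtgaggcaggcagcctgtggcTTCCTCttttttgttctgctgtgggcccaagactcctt
Fcgr1, chr3:96293970-96294049, minus strand: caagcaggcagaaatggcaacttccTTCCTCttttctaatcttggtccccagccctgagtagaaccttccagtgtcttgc
Itgam, chr7:128062560-128062639, plus strand: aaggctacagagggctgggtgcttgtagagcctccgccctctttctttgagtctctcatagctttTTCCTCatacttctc
The match begins 40 bases before the start in Trem2, 35 in Mrc1, 30 in C1qb, 38 in Laptm5, 55 in Fcgr1 and 15 in Itgam. Several of the genes are also neighbours on their chromosomes. No other protein-coding gene separates Itgam from Itgax on chromosome 7, Clec10a from Mgl2 on chromosome 11, Lyz1 from Lyz2 on chromosome 10, or C1qc from C1qa and C1qb on chromosome 4. Lyz1 and Lyz2, and likewise Clec10a and Mgl2, encode closely related proteins, so probes of either gene may take up transcript of the other.

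The arrays had a median intensity of 67.1 to 70.8. The deposited values had already been normalized between arrays, so this closeness is no check of the arrays. Cavin-3 (Prkcdbp) had log2 signals of 6.79, 6.78 and 7.12 in KO and 10.05, 10.90 and 10.45 in WT, which is 0.0843-fold (limma, adjusted p = 0.0409). Adipocyte markers were bright, as each of the 11 measured genes of 12 exceeded the median of all 6 arrays. Although the methods name male mice, KO replicate 3 and WT replicate 2 had log2 signals of 11.34 and 11.15 for Xist and 3.21 and 3.36 for Uty, where the other 4 arrays had 3.70 to 6.30 and 7.89 to 8.14. Skeletal muscle genes were highest in these same 2 arrays, with a mean log2 signal of 8.84 in KO replicate 3 and 8.89 in WT replicate 2, against 5.66 to 6.80 elsewhere. KO replicate 2 and WT replicate 1 in turn stood apart in 2 of 8 epididymal genes, with log2 signals of 11.49 and 11.89 for Spink8, where the other arrays had 4.12 to 5.31, and of 9.19 and 10.33 for Adam7, where they had 3.67 to 4.51. Each pair of arrays was therefore also left out together.

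None of the 40 macrophage genes showed a difference between KO and WT adipose tissue that could be told from the spread between mice. With limma, 0 of 40 passed an adjusted p of 0.05, where 0.00502% of all genes did (1 of 19937, cavin-3 itself) and 0.00575% of all probe sets. Before adjustment 0 of 40 lay under 0.05 with limma, where 0.838% of all genes did. The methods' t-test also placed 0 of 40 under 0.05 before adjustment, where 2.18% of all probe sets were. The adjusted p of each of the 40 genes was 1, and it is not repeated below. The KO and WT values overlapped in all 40 genes, and in all but 4.61% of all genes. For each of these counts the share of all genes or probe sets was low too. A count of 0 of 40 therefore does not set the macrophage genes apart. Where no gene differs, a fraction of about 0.05 would still have an unadjusted p under 0.05. The shares found, 0.838% of all genes with limma and 2.18% of all probe sets with the methods' t-test, were below that. Both tests were thus strict on these arrays, and why was not tested. The count of 0 cannot show that the macrophage genes were unchanged. The smallest unadjusted p was that of Tnf, 0.120.

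The differences were small in size, with 0 of 40 genes outside 1.5-fold, where 0.441% of all genes were. All but Trem2 lay within 1.2-fold (97.5% of the 40 genes, against 94.9% of all genes). The median of the absolute log2 differences was 0.10 for the macrophage genes and 0.07 for all genes, with a median standard error of 0.14 and 0.12. For 30 of the 40 genes the whole 95% interval stayed within 1.5-fold to either side, a share of 75.0% against 83.7% of all genes. For 39, all but Trem2, it stayed within 2-fold. By direction, 27 of 40 genes (67.5%) were below 0 in KO minus WT and 13 were above, where 49.7% of all genes were below. The median of the 40 differences was -0.06 on the log2 scale and that of all genes 0.00. Without WT replicate 3 the median of the 40 was 0.00 and 20 of 40 were below 0, as were 20 of 40 without KO replicate 1, and without WT replicate 1 the median was -0.13. The sign of 21 of the 40 differences turned on leaving out at least 1 single array. This leaning depended on which mice were compared. Between the 2 arrays of high Xist signal, KO replicate 3 was below WT replicate 2 in 15 of 40 genes (median 0.07), while over the other 4 arrays KO was below WT in 34 of 40 (median -0.13). The first of these comparisons rests on 1 array of each genotype. The 40 genes share their arrays, and these 2 counts were not taken over all genes.

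**Figure D1:**
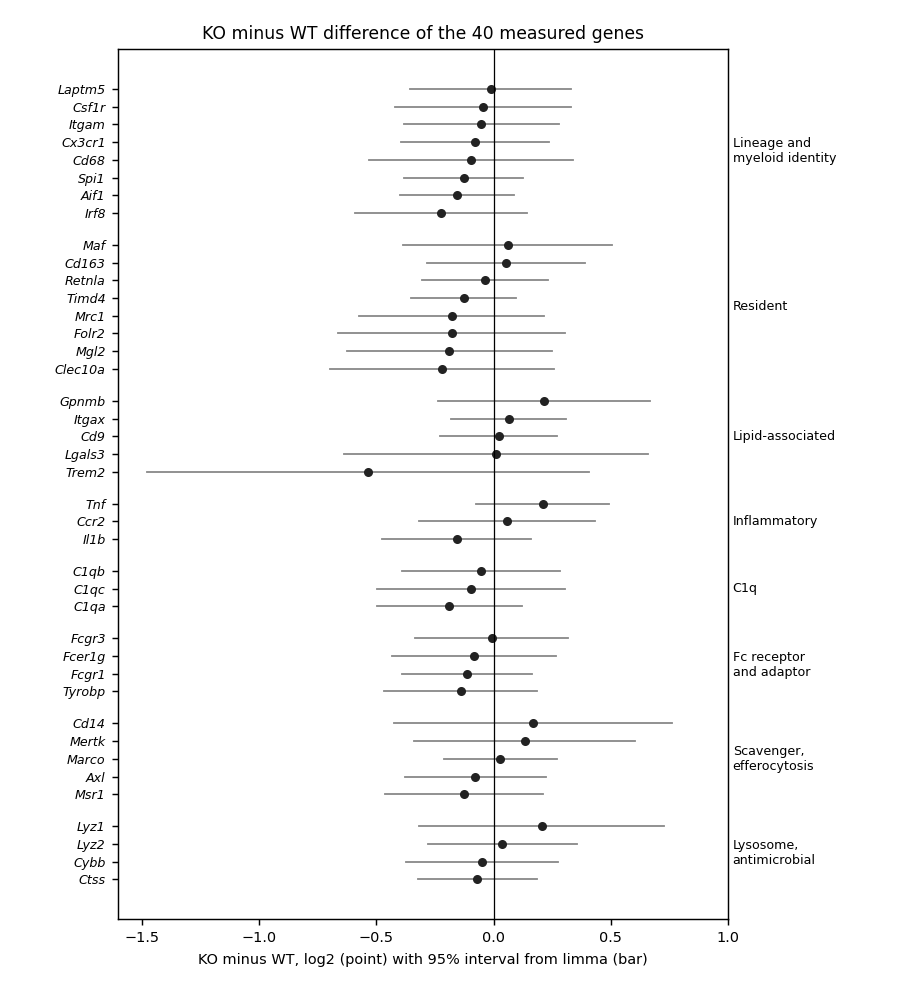
KO minus WT difference of log2 intensity for the 40 measured macrophage genes (points), with 95% intervals from limma (bars), ordered within their groups. Every interval spans 0, and that of Trem2, from -1.48 to 0.41, is the widest.

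The 8 lineage and myeloid identity genes all lay within 1.2-fold between the genotypes, and 0 of them were called. Csf1r, the receptor for the growth factor CSF1, had log2 signals of 9.17, 9.27 and 9.52 in KO and 9.17, 9.29 and 9.63 in WT. Cd68, a glycoprotein of macrophage lysosomes, had 8.50, 8.71 and 8.82 in KO and 8.52, 8.67 and 9.13 in WT. In both genes the lowest KO and the lowest WT value were nearly the same, and the highest was that of WT replicate 3. Csf1r was at 0.969-fold in KO (95% interval 0.747 to 1.26) and Cd68 at 0.935-fold (0.692 to 1.26). Without WT replicate 3 both differences were above 0, at 0.09 for Csf1r and 0.08 for Cd68, while without KO replicate 3 and WT replicate 2 they were -0.18 and -0.22.

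The widest differences of this group belonged to Irf8 and Aif1. Irf8, a transcription factor of monocytes and dendritic cells, had 7.28, 7.12 and 7.40 in KO and 7.45, 7.77 and 7.26 in WT. Its difference was -0.22 (standard error 0.15), and WT replicate 3, the highest array for 6 of these 8 genes, was the lowest WT array here. Aif1, which encodes the actin-bundling protein IBA1, was dim, with 5.19, 5.37 and 5.23 in KO and 5.34, 5.37 and 5.55 in WT (difference -0.15, standard error 0.10). The other 4 genes, the fractalkine receptor gene Cx3cr1, the integrin gene Itgam (CD11b), Spi1 and the lysosomal membrane gene Laptm5, lay between -0.13 and -0.01. All 8 differences were below 0, with a median of -0.09.

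Of the resident genes, 6 of 8 were below 0 and the median difference was -0.15. Mrc1, the mannose receptor, had log2 signals of 8.87, 8.99 and 9.32 in KO and 9.02, 9.26 and 9.44 in WT, or 0.884-fold in KO (95% interval 0.673 to 1.16). Clec10a, a lectin for galactose-type sugars, had 7.24, 7.26 and 7.71 in KO and 7.34, 7.58 and 7.94 in WT, a difference of -0.22 (95% interval -0.70 to 0.26). Timd4, a receptor for phosphatidylserine on dying cells, had 6.04, 6.18 and 6.11 in KO and 6.14, 6.23 and 6.34 in WT, or 0.915-fold (0.783 to 1.07). In all 3, KO replicate 1 was the lowest of the 6 arrays and WT replicate 3 the highest, and the KO and WT ranges overlapped. The standard deviation was 0.24 among KO and 0.21 among WT arrays for Mrc1, and 0.26 and 0.30 for Clec10a, each larger than the difference between the genotypes with all arrays. With KO replicate 3 and WT replicate 2 left out, the difference was -0.30 for Mrc1 and -0.39 for Clec10a.

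Mgl2, the neighbour and close relative of Clec10a, had 8.19, 8.24 and 8.19 in KO and 8.02, 8.74 and 8.42 in WT. The KO values were tight (SD 0.03) and fell inside the spread of WT (SD 0.36), with a difference of -0.19. Without WT replicate 1 it was -0.38 and passed 0.05 before adjustment but not after (limma, adjusted p = 1), and without WT replicate 2 it was -0.02, or -0.01 with KO replicate 3 left out as well. The other resident genes lay between -0.18 and 0.06. They were the haemoglobin scavenger receptor gene Cd163, the folate receptor gene Folr2, the secreted factor gene Retnla and the transcription factor gene Maf. KO replicate 1 was the lowest array in 7 of the 8 resident genes. Leaving out KO replicate 1 brought the resident median to -0.06 and leaving out WT replicate 3 to -0.07, while it was -0.23 without WT replicate 1. Between the 2 arrays of high Xist signal, KO replicate 3 and WT replicate 2, 1 of each genotype, it was 0.10, with 3 of 8 genes below 0. Over the other 4 arrays it was -0.14, with 8 of 8 below 0.

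**Figure D2:**
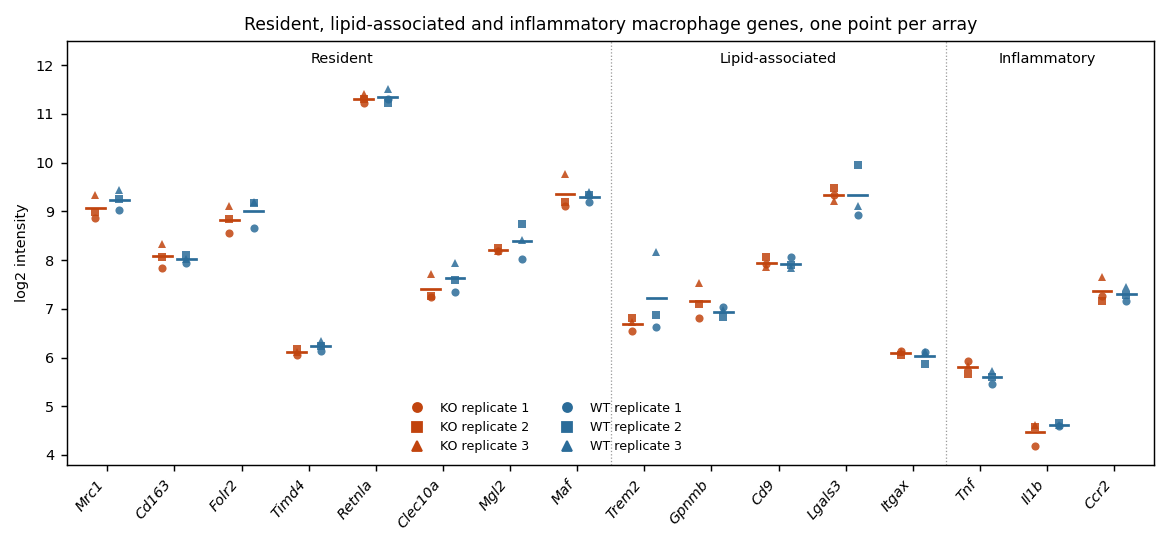
Log2 intensity of 8 resident, 5 lipid-associated and 3 inflammatory macrophage genes on each array (KO in orange to the left, WT in blue to the right, a symbol for each replicate number, a line at each group mean). KO and WT points overlap in every gene, and the Trem2 value of WT replicate 3 (8.17) lies 1.30 above the next array.

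Trem2 had the largest difference of the 40 genes and owed it to a single WT mouse. TREM2 is the lipid-sensing receptor that gives lipid-associated macrophages their programme. Its log2 signal was 6.53, 6.81 and 6.73 in KO and 6.63, 6.87 and 8.17 in WT. The means were 6.69 ± 0.14 in KO and 7.22 ± 0.83 in WT (SD, n = 3 each), and 5 of the 6 arrays lay within 6.53 to 6.87. The difference was -0.53 (standard error 0.39), or 0.690-fold, and its 95% interval ran from 0.360 to 1.33 (limma, adjusted p = 1). Without WT replicate 3 the difference was -0.06. It was -0.83 without WT replicate 1, -0.89 when KO replicate 2 was left out as well, and -0.73 after removal of KO replicate 3 together with WT replicate 2. The study lists Trem2 among its altered genes on these same arrays, so its direction here is not independent evidence.

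The Trem2 value of WT replicate 3 stood out among all genes of that array. It exceeded the next highest array by 1.30, and only 8 of 19937 genes exceeded it by more than 1 in WT replicate 3. Trem2 was the only one of the 40 macrophage genes among these 8. Ahead of it came Lrmda (9.29 in WT replicate 3, 6.57 to 6.63 on the other arrays), Hsd3b6 (6.82, against 4.08 to 5.03) and Cyp11a1 (6.22, against 3.71 to 4.86). Hsd3b6 and Cyp11a1 encode enzymes of steroid hormone synthesis. Their part in the Trem2 value was not tested. Next to Trem2, the largest gap between the highest and the second array among the macrophage genes was 0.48, that of Lgals3.

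The adaptor of Trem2 was also highest in WT replicate 3, by less. That array was the highest for 22 of the 40 genes, and among the 5 lipid-associated genes for Trem2 alone. Tyrobp encodes DAP12, the adaptor through which TREM2 signals. It had 8.39, 8.54 and 8.36 in KO and 8.38, 8.51 and 8.82 in WT, so that WT replicate 3 lay above the next array by 0.28. Among the other lipid-associated genes, Gpnmb, a glycoprotein of lipid-laden macrophages, had 6.82, 7.11 and 7.54 in KO and 7.03, 6.82 and 6.97 in WT. Here KO replicate 3 was high and WT replicate 3 ordinary, at 1.16-fold in KO (0.847 to 1.59). The difference of Gpnmb was 0.02 without KO replicate 3 and -0.04 without KO replicate 3 and WT replicate 2 together.

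Lgals3 (galectin-3), which other cells of fat express too, had 9.34, 9.48 and 9.21 in KO and 8.92, 9.95 and 9.11 in WT. The 3 KO values fell between the lowest and the highest WT value, and the difference was 0.01 (standard error 0.27). Without WT replicate 2 it was 0.32 and passed 0.05 before adjustment only, and without KO replicate 3 as well it was 0.39. Itgax (CD11c), an integrin of inflammatory macrophages and dendritic cells, had 6.13, 6.06 and 6.11 in KO and 6.11, 5.87 and 6.12 in WT. It was dim and differed by 0.06 (standard error 0.10), or by -0.02 without KO replicate 3 and WT replicate 2. Cd9, a tetraspanin found on many cell types, differed by 0.02. The median of the 5 lipid-associated genes was 0.02, and without Trem2, which is no independent choice, the other 4 were all above 0 with a median of 0.04.

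**Figure D3:**
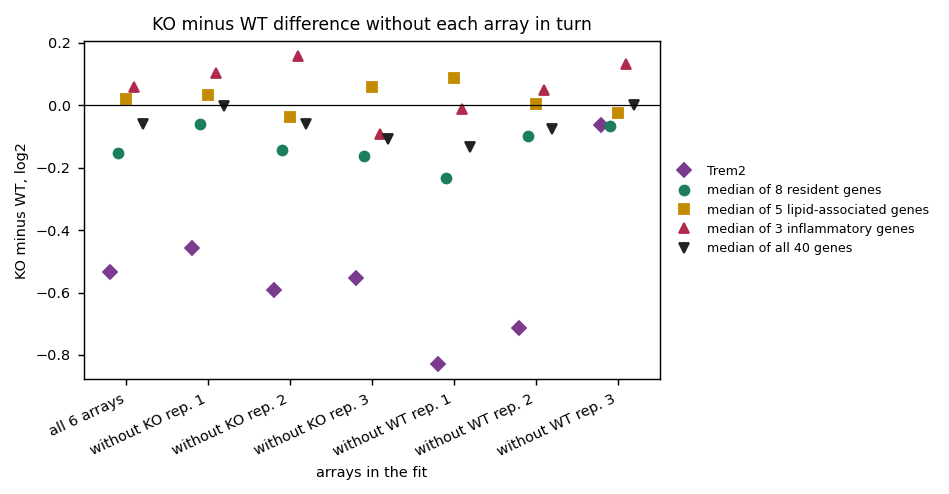
KO minus WT log2 difference of Trem2 and the median differences of the resident, lipid-associated, inflammatory and all 40 macrophage genes, with all 6 arrays and without each array in turn. Trem2 lies at -0.53 with all arrays and at -0.06 without WT replicate 3, while the resident median stays below 0 in every fit shown.

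Inflammatory genes gave no common direction. Tnf, the cytokine TNF, had log2 signals of 5.94, 5.65 and 5.83 in KO and 5.45, 5.60 and 5.73 in WT. It was at 1.16-fold in KO, between 0.951 and 1.41, with 2 of 3 KO arrays above every WT array. Il1b, interleukin-1 beta, had 4.19, 4.57 and 4.62 in KO and 4.60, 4.65 and 4.61 in WT. KO replicate 1, the highest array for Tnf, was the lowest for Il1b, and without it the Il1b difference of -0.16 was -0.02. Neither gene lay above the median signal of the arrays, so both were read near the dim end. Ccr2, the chemokine receptor that brings monocytes into tissue, had 7.26, 7.16 and 7.65 in KO and 7.16, 7.28 and 7.45 in WT. It was at 1.04-fold (0.803 to 1.35) in KO, while leaving out KO replicate 3 turned its log2 difference to -0.09, leaving out WT replicate 1 to -0.01, and leaving out KO replicate 3 with WT replicate 2 to -0.10. The median of the 3 differences was 0.06.

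Set side by side, the resident, lipid-associated and inflammatory genes had median differences of -0.15, 0.02 and 0.06. As group means per array, the resident genes were at 8.38, 8.51 and 8.74 in KO and 8.45, 8.70 and 8.78 in WT. The lipid-associated genes were at 7.35, 7.50 and 7.49 in KO and 7.35, 7.48 and 7.64 in WT, and the inflammatory genes at 5.80, 5.79 and 6.03 in KO and 5.74, 5.85 and 5.93 in WT. The KO and WT arrays overlapped for each of the 3 groups, and whether the groups differ from each other was not tested.

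The C1q genes encode the chains of the complement component that resident macrophages secrete. C1qa had 8.80, 9.02 and 8.89 in KO and 8.88, 9.13 and 9.27 in WT, or 0.878-fold (0.708 to 1.09). C1qc had 8.99, 9.33 and 9.14 in KO and 8.95, 9.30 and 9.50 in WT, a difference of -0.10. WT replicate 3 was the highest array in all 3 C1q genes, and C1qb differed by -0.05. Without WT replicate 1 the difference of C1qa was -0.30 and passed 0.05 before adjustment only, and without WT replicate 3 it was -0.10. The other C1q genes turned above 0 without WT replicate 3, C1qb to 0.05 and C1qc to 0.03. C1qb was also at 0.03 without KO replicate 1.

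The Fc receptor genes and their adaptors were likewise highest in a WT mouse. Fcgr1, the high-affinity receptor for IgG, had 6.26, 6.26 and 6.40 in KO and 6.28, 6.37 and 6.61 in WT, or 0.926-fold (0.764 to 1.12). Tyrobp, given above, was at 0.907-fold (0.723 to 1.14). All 4 genes of this group peaked in WT replicate 3. All 4 differences were below 0, those of the shared gamma chain gene Fcer1g and the low-affinity IgG receptor gene Fcgr3 at -0.08 and -0.01. This shared sign was lost without WT replicate 3, where Fcer1g was at 0.06 and Fcgr3 at 0.08. Tyrobp and Fcgr1 were then at -0.01 and -0.02. Fcgr3 was also above 0 without KO replicate 1 (0.06) and without WT replicate 2 (0.02).

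Scavenger and pattern receptors lay on both sides of 0. Msr1, the class A scavenger receptor, had 6.66, 6.64 and 6.97 in KO and 6.69, 6.91 and 7.05 in WT, or 0.917-fold (0.726 to 1.16). Cd14, the coreceptor for bacterial lipopolysaccharide, had 7.40, 7.01 and 6.80 in KO and 6.98, 6.46 and 7.27 in WT, or 1.12-fold (0.746 to 1.69). The values of both genotypes overlapped, with WT replicate 2 the lowest and KO replicate 1 the highest array. Leaving out WT replicate 2 brought the difference of Cd14 to -0.05, and leaving out KO replicate 1 brought it to 0.00. With KO replicate 3 and WT replicate 2 both left out it was 0.08. The efferocytosis receptor genes Mertk and Axl and the scavenger receptor gene Marco lay between -0.08 and 0.13.

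Among lysosomal and antimicrobial genes, Lyz1 had the widest difference. It encodes a lysozyme and had 10.05, 10.25 and 10.03 in KO and 9.63, 9.69 and 10.40 in WT. The KO values lay between the 2 lower WT arrays and WT replicate 3, at 1.15-fold (0.803 to 1.66). Without WT replicate 3 the difference was 0.45, again under 0.05 before adjustment only. Lyz2, its close relative and the main lysozyme of macrophages, differed by 0.04. The protease gene Ctss had 7.91, 8.0 and 8.17 in KO and 8.13, 7.98 and 8.16 in WT (difference -0.07), and Cybb, the catalytic subunit of the phagocyte oxidase, differed by -0.05.

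Many of the macrophage genes shared the order of the mice. In WT replicate 3, 22 of the 40 genes (55.0%) had their highest value, against 13.7% of all genes. This array lay above the mean of the gene in 34 of 40, against 10782 of all 19937 genes. In KO replicate 1, 20 of the 40 had their lowest value, against 15.1% of all genes. This array lay below the mean in 33 of 40, against 10229 of all 19937 genes. The median deviation from the mean of each gene was -0.15 for KO replicate 1, 0.00 for KO replicate 2 and 0.06 for KO replicate 3. It was -0.12 for WT replicate 1, 0.00 for WT replicate 2 and 0.18 for WT replicate 3. At the low end of this range WT replicate 1 lay near KO replicate 1. At the high end WT replicate 3 lay above every other array, and KO replicate 3 was above 2 of the 3 WT arrays. These genes share their arrays and their cells, so the counts are a description and not independent observations.

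**Figure D4:**
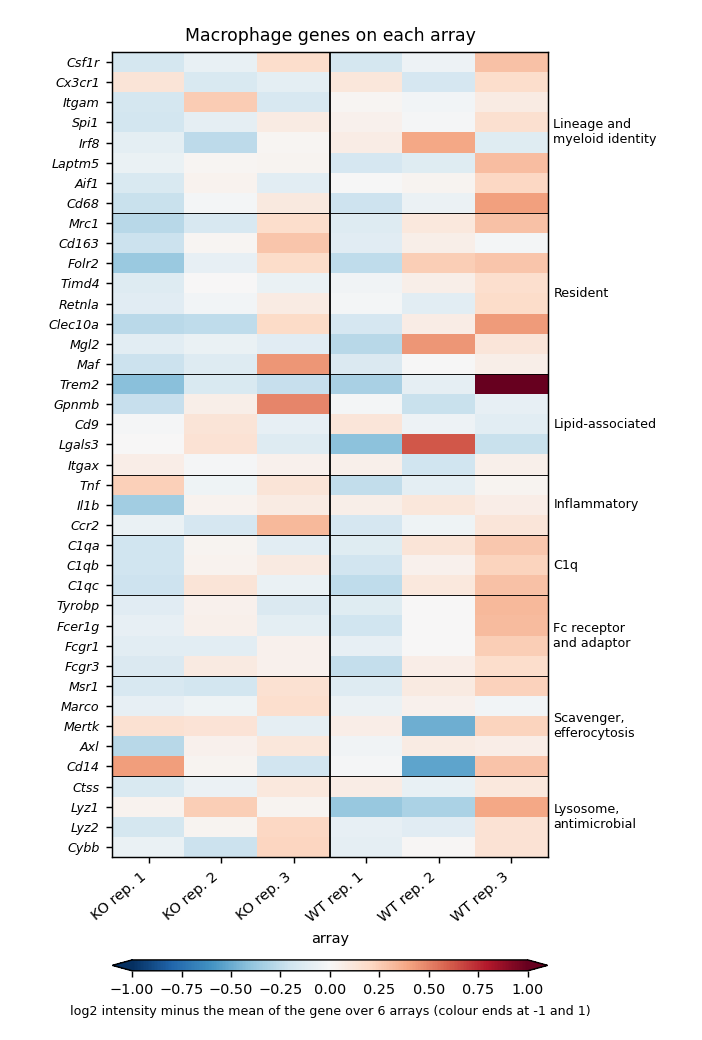
Log2 intensity of each macrophage gene on each array minus the mean of that gene over the 6 arrays (KO arrays left of the line, WT arrays right; red above and blue below the mean). WT replicate 3 lies above the mean in 34 of 40 genes and KO replicate 1 below it in 33.

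Other genes of macrophages, listed alongside, gave no call after adjustment either. Of 22 measured genes of 24 further macrophage markers, such as Adgre1 (F4/80) and Ptprc (CD45), 9 were above and 13 below 0 (median -0.03), and 0 had an unadjusted p under 0.05. The KO and WT values did not overlap in 2 of the 22 (9.09%, against 4.61% of all genes). Pf4, a chemokine of platelets and macrophages, had 8.80, 8.87 and 8.56 in KO and 8.93, 8.96 and 9.32 in WT, or 0.796-fold (0.626 to 1.01). Csf2ra, a receptor chain for GM-CSF, had 8.42, 8.44 and 8.69 in KO and 8.21, 8.34 and 8.39 in WT, or 1.15-fold (0.957 to 1.39). WT replicate 3 lay above the mean in 19 of these 22 and KO replicate 1 below it in 19, although KO replicate 3 held the highest value of 12. The 15 further genes of lipid-laden macrophages, among them Apoe, Lipa and the cathepsins, had 6 above and 9 below 0 (median -0.05), also with 0 under 0.05. Of these 15, 2 (13.3%) were highest in WT replicate 3, against 13.7% of all genes. Of 8 measured genes of the 10 listed for signalling below ITAM adaptors, such as Syk and Plcg2, 6 were above and 2 below 0 (median 0.01).

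Ccl2, the chemokine that draws CCR2-bearing monocytes, was the 1 gene of these further lists with an unadjusted p under 0.05. It had log2 signals of 6.79, 6.82 and 6.39 in KO and 6.93, 6.96 and 7.23 in WT, with every KO value below every WT value. Ccl2 was at 0.771-fold in KO, with a 95% interval from 0.597 to 0.994, and did not pass after adjustment (limma, adjusted p = 1). Its neighbour Ccl7, another ligand of CCR2, had 6.86, 6.57 and 6.27 in KO and 6.78, 7.02 and 6.99 in WT, and here the groups overlapped. Over all genes 0.477% were lower in KO with an unadjusted p under 0.05. The list that holds both chemokines, 17 inflammatory and alternative activation genes, was above 0 for 9 and below for 8 (median 0.02). It also holds Ptgs2, with 12.18 in KO replicate 2 and 11.55 in WT replicate 1 and 6.29 to 6.45 on the other arrays, the same 2 arrays that were high in Spink8 and Adam7.

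Markers of other cells followed the same arrays in some lists and not in others. WT replicate 3 lay above the mean for 8 of 8 measured T cell genes, 10 of 10 endothelial genes and 9 of 11 adipocyte genes. It did so for 5 of 8 fibroblast and progenitor genes and 2 of 6 mesothelial genes, and for 10782 of all 19937 genes. KO replicate 1 lay below the mean in all of these fibroblast and mesothelial genes and above it in 7 of 10 endothelial genes. Genes of liver had these 2 arrays at the opposite ends, with all 10 highest in KO replicate 1 and lowest in WT replicate 3. In KO minus WT all 10 were above 0 (median 0.71). The mean of the liver genes was 7.10, 5.76 and 6.55 in KO and 6.21, 5.65 and 5.13 in WT. The part of these cells and tissues in the macrophage values was not tested. Among the T cell genes, Cd3g, a subunit of the T cell receptor, was at 0.746-fold in KO (0.606 to 0.919), under 0.05 before adjustment only, and 7 of the 8 differences were below 0 (median -0.11). Neutrophils share Itgam and Fc receptor genes with macrophages, and their own markers were dim, with 0 of 11 above the median of all 6 arrays, as were B cell genes, with 0 of 6. The exception among neutrophil genes was Ltf, at 7.70 in KO replicate 2 and 8.82 in WT replicate 1 and 4.30 to 4.54 elsewhere. Without Ltf the neutrophil mean of log2 signals was at most 4.69 in KO and at most 4.62 in WT. Of 11 genes of antigen presentation and dendritic cells 7 were above and 4 below 0 (median 0.08).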

How the data were processed

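Adipose RNA of 3 cavin-3 KO and 3 WT mice was amplified to cDNA, labelled with biotin and hybridised to Affymetrix Mouse Gene 1.0 ST arrays. The values the authors deposited are linear intensities from RMA (version not given in the sources used here), which already holds background correction and quantile normalization. Signal over background was not analysed here, and the number of arrays limits the precision.

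Here log2 values were fitted with genotype as the only term in limma 3.58.1 (R 4.3.3) with moderated variances, and p-values were adjusted by Benjamini-Hochberg across the 34760 probe sets. Differences are KO minus WT on the log2 scale, folds are KO over WT, and intervals cover 95%. The Student t-test of the study is called the methods' t-test. The procedure was tested on simulated data. The alternatives were other tests, normalizations, probe set choices, array weights, covariates and left-out arrays.

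Names came from the platform annotation: 21640 probe sets had 1 symbol, 1321 several and 11799 none, 21553 of the first kind matched RefSeq, and 19937 genes remained. Cavin-3 was matched through its synonym. The 41 genes, the other lists and the alternatives were chosen with earlier results of these data known. Values per array are given for Csf1r, Cd68, Mrc1, Trem2, Itgax, Tnf and Il1b and for the genes of lowest unadjusted p per group (3 in the resident, lipid-associated and inflammatory groups, 2 in the others). Lgals3, Mgl2, Ccl7, Ptgs2, Pf4, Csf2ra, Ltf, Spink8, Adam7 and the genes that stood out in WT replicate 3 were named after their values were seen. The mice are described as separate animals, and same-numbered KO and WT mice are not paired.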

Additional observations from a re-analysis of the deposited data

How the results depend on the processing

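Of the 40 macrophage genes, 0 passed an adjusted p of 0.05 under any of the 19 alternatives, from limma or either t-test. Over all probe sets 2 were called with limma, 0 by the methods' t-test or the t-test on linear values, 1 among probe sets with 1 symbol, 0 without KO replicate 3 and WT replicate 2 together, 0 without KO replicate 2 and WT replicate 1 together, and 1 to 2 without single arrays. With the replicate number as a block, 0 probe sets and 0 macrophage genes were called. Same-numbered arrays did not deviate together (r of -0.15, -0.37 and -0.09 for numbers 1, 2 and 3 across probe sets), and no array correlated best with the array of its own number in the other genotype. Arrays of other numbers did. KO replicate 2 went with WT replicate 1 (r of 0.52), KO replicate 3 with WT replicate 2 (0.48) and KO replicate 1 with WT replicate 3 (0.37). The main fit has no term for this shared deviation, and its cause was not tested. The count of macrophage genes with an unadjusted p under 0.05, 0 with all arrays, was 0 to 2 without single arrays (Mgl2 and C1qa without WT replicate 1, Lgals3 without WT replicate 2, Lyz1 without WT replicate 3), 1 (Lgals3) without KO replicate 3 and WT replicate 2, and 1 (C1qa) without KO replicate 2 and WT replicate 1. The median of all 40 genes was -0.13 to 0.00 without single arrays and -0.15 with array weights. That of the inflammatory genes was -0.090 to 0.16 without single arrays, -0.077 with array weights and -0.097 without KO replicate 3 and WT replicate 2. The lipid-associated median was -0.038 to 0.087 without single arrays and -0.023 without KO replicate 3 and WT replicate 2. The resident median stayed below 0 in these fits, but was 0.096 between KO replicate 3 and WT replicate 2 alone. Of the 40 genes, 21 changed sign without at least 1 single array, 11 of them without WT replicate 3 and 7 without KO replicate 1. Among the 23 genes given per array these were Csf1r (-0.14 to 0.089), Cd68 (-0.22 to 0.083), Itgax (-0.019 to 0.11), Ccr2 (-0.090 to 0.16), C1qc (-0.25 to 0.027), Cd14 (-0.052 to 0.35) and Lgals3 (-0.19 to 0.32). Without KO replicate 3 and WT replicate 2, Gpnmb was at -0.036, Itgax at -0.023 and Ccr2 at -0.097, and without KO replicate 2 and WT replicate 1, Lyz1 was at -0.0025 and Lgals3 at -0.26. Ccr2 was at -0.077 with array weights and Lgals3 at -0.058 on linear values. The cause of these shifts was not tested. A filter on dim probe sets left 35 of the 40 genes, and 1 of the 3 inflammatory genes. For 30 of the 40 genes the 95% interval stayed within 1.5-fold, and for the others a difference of that size lies within the interval.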
